A study of Danio rerio with 14 samples.

Results

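The genes examined here encode factors that act in the folding or assembly of motor and filament proteins. They are unc45b, hsp90aa1.1, smyd1a and cct2, and their 7 probes were read among 13270 probes measured in the abdomen of zebrafish larvae. All probes that carried one of these gene symbols were taken, and 740 genes with 888 probes carried a symbol at all. In abdomens of larvae with knocked-down type 3 deiodinase, each of the 4 genes was higher than in control abdomens, by 1.52-fold to 1.73-fold at its most strongly changed probe. The other probes of hsp90aa1.1 and smyd1a were higher by 1.36-fold to 1.46-fold and did not pass the thresholds, which 0.821% of all probes passed upwards. In abdomens with knocked-down type 1 and type 2 deiodinases no member passed the thresholds, and cct2 alone was higher with an adjusted p under 0.05. There 0.761% of all probes passed upwards and 0.098% downwards. The 4 genes had been selected on their measured values in the first of these comparisons, so those values are a description and carry no test.

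The study compared D3MO, D1D2MO and SCMO larvae, all of the wild type strain WIK, at 72 hours post fertilization (hpf). D3MO larvae had received an antisense morpholino against the type 3 deiodinase gene dio3b, D1D2MO larvae a combination against type 1 and type 2 deiodinases, and SCMO larvae the standard control morpholino. Morpholinos went into the yolk of the early embryo and block translation only transiently, so the mRNA of the targeted genes is no check of the knockdown, and those genes had no named probe. Each group had 4 biological replicates, which the labels describe as pools of 20 larvae. The methods of the study give a larger pool for abdomens. RNA of these 12 pools was labelled with both dyes and applied to 14 arrays of 2 colours. D1D2MO was paired with SCMO on 6 arrays, D3MO with SCMO on 4 and D3MO with D1D2MO on 4, with both dye orientations equally often in each pairing. The dissected region took in the yolk, the swim bladder, the liver and the whole gut.

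Type 1 and type 2 deiodinases raise the active thyroid hormone T3 inside cells, and type 3 deiodinase lowers it. Myosin heads do not fold unaided. UNC45B binds the myosin head with its UCS domain and binds Hsp90 with its TPR domain, and in zebrafish both UNC45B and Hsp90-alpha are needed to build the thick filaments of skeletal muscle. Smyd1 is a lysine methyltransferase of striated muscle that binds myosin and acts in the same assembly. CCT2 is the beta subunit of TRiC/CCT, a ring-shaped chaperonin that folds actin and tubulin in all cells.

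The deposited values are the log2 fold change (log2FC) and p-value of each probe in each of 3 contrasts, from a single limma fit. Values of single arrays were not analysed here, so no value per replicate can be given. The error of each log2FC is its standard error (SE) or 95% confidence interval (CI), recovered from log2FC and p at 6.93 degrees of freedom. A probe was called where its Benjamini-Hochberg adjusted p over all probes was under 0.05 and its change was over 1.5-fold in either direction on the linear scale. Over all probes the median SE was 0.0829 in D1D2MO and 0.0920 in D3MO, each against SCMO. The SE of the members lay between 0.0671 and 0.142 in D1D2MO and between 0.0745 and 0.158 in D3MO. The contrasts share samples: both knockdowns were set against the same SCMO pools, and the direct contrast of D3MO with D1D2MO is the difference between them. In bulk abdomen RNA, a change in the number of muscle cells and a change in RNA per cell cannot be told apart.

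Expression of unc45b, the myosin chaperone proper, was 1.69-fold higher in D3MO than in SCMO abdomen (log2FC 0.76, 95% CI 0.57 to 0.95, SE 0.0801). In D1D2MO its log2FC was -0.19 against SCMO (CI -0.36 to -0.019), which did not pass the test (limma, adjusted p = 0.204). The direct contrast put D3MO 1.93-fold above D1D2MO (log2FC 0.95, CI 0.76 to 1.14). The gene was thus high in D3MO, the contrast it was selected on, and slightly below SCMO in D1D2MO without passing the test. Ordered from the highest log2FC downwards, it stood at place 63 of 13270 in D3MO and at place 11524 in D1D2MO. The gene was read by 1 named probe with a mean log2 intensity of 9.82 over the arrays.

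A pair of probes read hsp90aa1.1, the zebrafish Hsp90-alpha gene of skeletal muscle. The first, with a mean log2 intensity of 9.03, was 1.73-fold higher in D3MO than in SCMO (log2FC 0.79, CI 0.59 to 0.98). It was near 0 in D1D2MO, with a log2FC of 0.030 (CI -0.15 to 0.21, adjusted p = 0.850). The second probe, with a mean log2 intensity of 6.94, gave a smaller log2FC of 0.44 in D3MO (CI 0.24 to 0.65) and -0.24 in D1D2MO (CI -0.42 to -0.055, adjusted p = 0.159). The values of the 2 probes differed in size in both knockdowns. In the direct contrast their log2FC values were 0.76 (CI 0.56 to 0.95) and 0.68 (CI 0.48 to 0.89), and the second probe carried a symbol only because it passed a filter on that contrast. The neighbouring protein-coding gene on one side of hsp90aa1.1 in the RefSeq annotation is its paralog hsp90aa1.2, and whether either probe also read that gene was not tested.

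The methyltransferase gene smyd1a was read by 3 probes, all higher in D3MO than in SCMO. Probe 1, with a mean log2 intensity of 12.3, had a log2FC of 0.70 in D3MO (CI 0.50 to 0.90), a fold of 1.62. Probe 2 had 0.55 (CI 0.28 to 0.81) and probe 3 had 0.46 (CI 0.084 to 0.83), with mean log2 intensities of 7.48 and 7.70. The intervals of the 3 probes overlapped, and that of probe 3 was the widest of any member. None of them passed the test in D1D2MO, where the log2FC values were -0.13, -0.048 and -0.29 with adjusted p of 0.381, 0.821 and 0.299 in the limma fit. Set against D1D2MO, D3MO was higher by a log2FC of 0.83 (CI 0.63 to 1.03), 0.59 (CI 0.33 to 0.86) and 0.75 (CI 0.38 to 1.13) at probes 1, 2 and 3.

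The chaperonin gene cct2 differed from unc45b, hsp90aa1.1 and smyd1a in that it was higher in both knockdowns. In D3MO its log2FC was 0.60 (CI 0.43 to 0.78), a fold of 1.52. In D1D2MO it was 0.40 (CI 0.24 to 0.56), a fold of 1.32, with an adjusted p of 0.0338 in the limma fit and a fold under the threshold, so that it was not called. Of all probes, 2.52% were higher in D1D2MO with an adjusted p under 0.05 at any fold, and cct2 was the 1 probe of the 7 members' probes among them. Of the 888 probes with a symbol, 184 had an adjusted p under 0.05 in D1D2MO in either direction. D3MO stood above D1D2MO by a log2FC of 0.20 (CI 0.027 to 0.38), a fold of 1.15. This was not a call, by the fold or by the adjusted p. Its probe had a mean log2 intensity of 10.4 and stood at place 133 from the top in D3MO, at place 394 in D1D2MO and at place 2048 in the direct contrast.

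**Figure D1:**
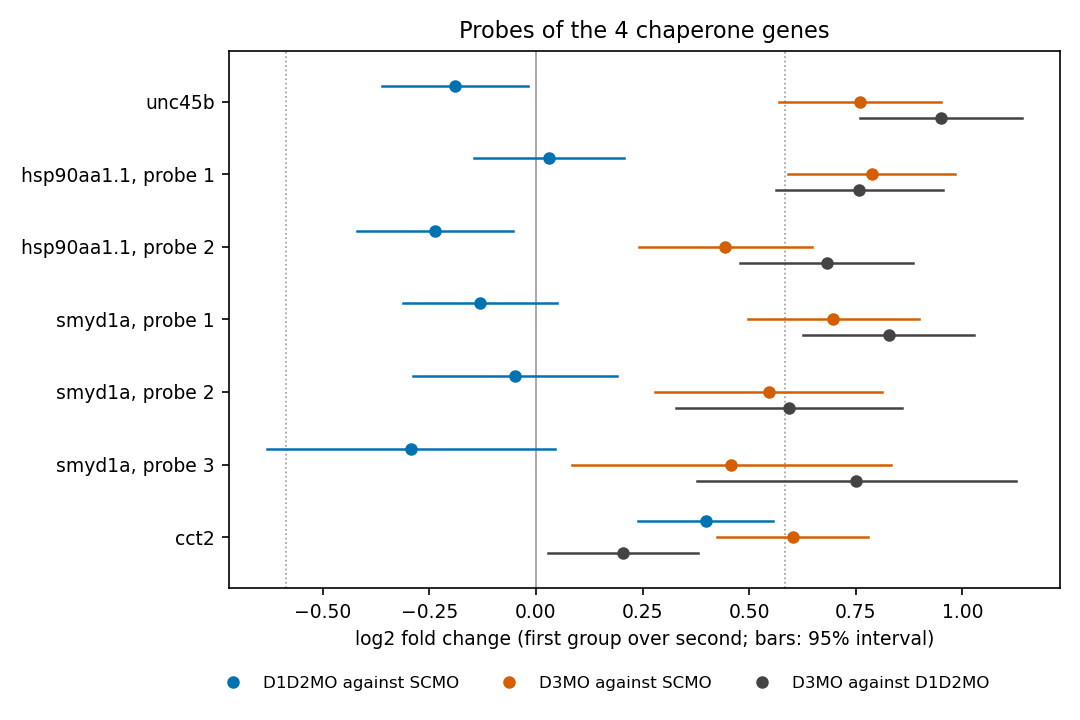
Log2 fold change of the 7 probes of the 4 genes (horizontal axis) for each knockdown against SCMO and for D3MO against D1D2MO. Points are fitted values, bars are 95% confidence intervals and dotted lines mark a 1.5-fold change on either side of 0. All 7 points of D3MO against SCMO lie between 0.44 and 0.79, and in D1D2MO only cct2 has an interval wholly above 0.

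Counted over the members, 0 of 7 probes were called in D1D2MO, where 0.761% of all probes were called higher and 0.098% lower. An unadjusted p under 0.05 in the limma fit was found there for 3 of the 7 probes. These were unc45b and the second probe of hsp90aa1.1, both below SCMO, and cct2, which was above it. The same mark was reached by 2730 of all 13270 probes and by 403 of the 888 with a symbol. In D3MO against SCMO, 4 of 7 probes and all 4 genes were past the thresholds in the upward direction, where 0.821% of all probes were called higher and 0.264% lower. In the direct contrast, 6 of 7 probes and 3 genes lay past them with D3MO above D1D2MO, where 0.889% of all probes were called higher in D3MO and 1.27% lower. These counts in the D3MO contrasts follow from the choice of the members. With the mean log2FC and the largest p over the probes of each gene, 2 genes (unc45b and cct2) stayed past the thresholds in D3MO against SCMO, and at an FDR of 0.01 none did. Those 2 genes had only 1 named probe each, so the first setting changed only the adjustment for them. Of the probes that carried a symbol, moreover, 11.4% were called higher in D3MO against SCMO, 10.4% in the direct contrast and 10.8% in D1D2MO against SCMO, since most symbols came from a table of probes called in some body part. The second probe of hsp90aa1.1 and probes 2 and 3 of smyd1a were named only through accession numbers listed for probes of unadjusted p under 0.05 and a change over 1.5-fold in the direct contrast, so that their place there was fixed. As they were under 1.5-fold in D3MO against SCMO, their values below SCMO in D1D2MO follow from this naming as well. The count of 3 of 7 probes in D1D2MO thus rests in part on the naming. Other probes of the 4 genes may stand in the table without a symbol.

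Within the members, the median log2FC was -0.13 in D1D2MO and 0.60 in D3MO, each set against SCMO, and 0.75 in the direct contrast. The medians of all probes in these contrasts were -0.00082, -0.011 and -0.0069, and those of the probes with a symbol 0.079, 0.068 and 0.013. Close to the threshold in D3MO, cct2 lay just inside with a log2FC of 0.60, while probe 2 of smyd1a lay just outside with 0.55. The log2FC was above 0 in D3MO and below 0 in D1D2MO at 5 of 7 probes. It was above 0 in both at 2, the first probe of hsp90aa1.1 and the probe of cct2. Of all 13270 probes 2654 showed the first pattern and 3487 the second, and of the 888 with a symbol 201 and 326. The sign in D3MO follows from the choice of the members. The second probe of hsp90aa1.1 and probes 2 and 3 of smyd1a, all of the first pattern, were named through a filter on the direct contrast. Their sign in D1D2MO, and the median of the members there, thus follow in part from the naming. Past the thresholds against SCMO and against D1D2MO, but not in D1D2MO, were 3 of the 7 probes, a count that follows from the choice of the members, beside 52 of all 13270 probes and 49 of the 888 with a symbol.

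**Figure D2:**
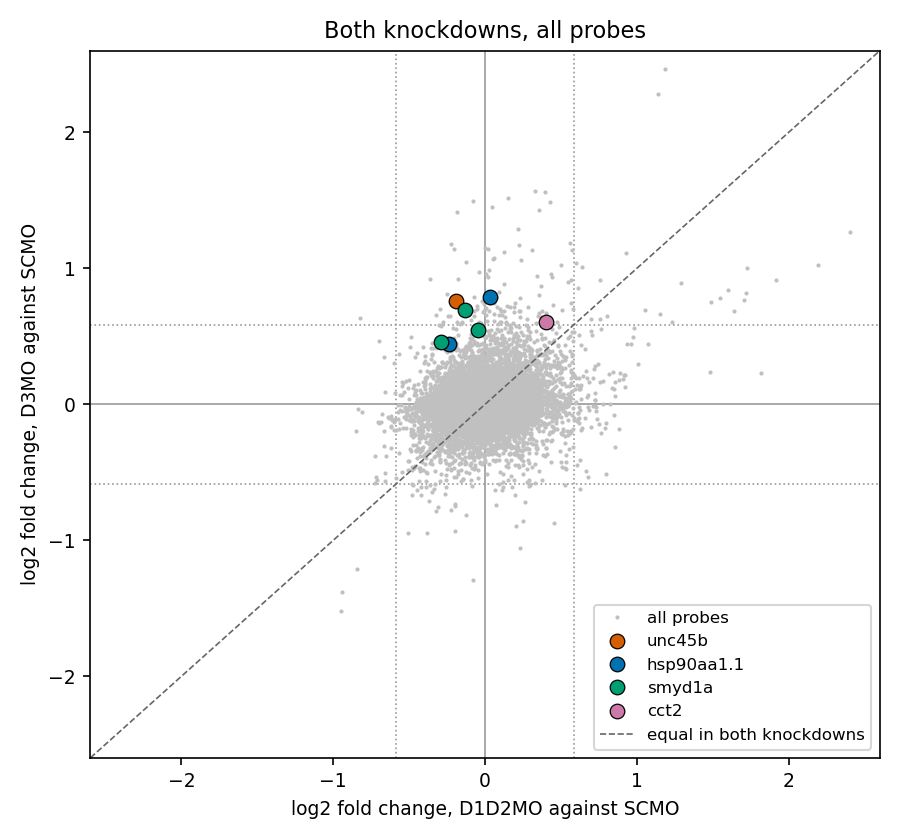
Log2 fold change of all 13270 probes in D1D2MO against SCMO (horizontal axis) and in D3MO against SCMO (vertical axis), with the members' probes in colour. Dotted lines mark a 1.5-fold change and the dashed line marks equal values in both knockdowns. Both axes share the SCMO samples, and the probes of unc45b, hsp90aa1.1 and smyd1a lie above the cloud near or left of 0, with cct2 to their right at 0.40 and 0.60.

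By the distance between their pairs of log2FC in the 2 knockdowns, unc45b and smyd1a were the closest members (0.0870), followed by hsp90aa1.1 and smyd1a (0.185) and by unc45b and hsp90aa1.1 (0.222). The distances of cct2 to the others were larger, from 0.412 for hsp90aa1.1 to 0.609 for unc45b. Among the 739 other genes with a symbol, those nearest to unc45b were abcf1, smyd1a and ttnb, a gene of the giant sarcomere protein titin, at distances of 0.0654, 0.0870 and 0.119. Nearest to hsp90aa1.1 were lrrc20, zgc:110726 and jph2, a junctophilin gene, between 0.0337 and 0.0390. Around smyd1a lay abcf1, fxr2 and zgc:56683, between 0.0233 and 0.0744. The neighbours of cct2 were aqp8b, the translation initiation factor gene eif2s2 and the tropomyosin gene tpm1, between 0.0234 and 0.0642. These distances rest on 2 fitted values per gene that share the SCMO samples, and they describe likeness of size only. The members were selected on 1 of these values, D3MO against SCMO, and read at the probe of smallest p there. Their closeness to each other on that value follows in part from this choice. Most genes with a symbol came from probes called in some body part.

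The relatives of the members were compared with them in the same fit. For the cytosolic Hsp90-beta gene hsp90ab1, the log2FC was -0.086 in D3MO (CI -0.45 to 0.28, adjusted p = 0.938) and -0.11 in D1D2MO (adjusted p = 0.693), both against SCMO. The second zebrafish Smyd1 gene, smyd1b, had 0.14 in D3MO (CI -0.11 to 0.39, adjusted p = 0.750) and -0.015 in D1D2MO (adjusted p = 0.947). Neither paralog passed the test in any contrast. Both paralogs were read by 1 named probe, and the difference between paralogs was not itself tested. The Hsp70 cochaperone gene bag2 had 0.42 in D3MO (adjusted p = 0.0887) and 0.080 in D1D2MO (adjusted p = 0.615). From the list of Hsp90 and its partners 3 of 12 genes were measured under a name, with hsp90aa1.1 the 1 gene past the thresholds, in D3MO and in the direct contrast. Of all probes 0.821% were called higher in D3MO against SCMO and 0.889% in the direct contrast, beside 11.4% and 10.4% of those with a symbol.

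Of the 8 CCT subunits, 4 were measured under a name, and no subunit other than cct2 was called in any contrast. In D3MO 0.821% of all probes and 11.4% of those with a symbol were called higher, so the lack of a call at 3 further subunits says little. The delta subunit gene cct4 had a log2FC of 0.41 in D3MO (CI 0.16 to 0.66, adjusted p = 0.135) and -0.11 in D1D2MO (adjusted p = 0.556). Between the knockdowns cct4 was higher in D3MO by 0.52 (CI 0.27 to 0.77), with an adjusted p of 0.0397 and a fold under the threshold. The zeta subunit gene cct6a had a log2FC of 0.22 in D3MO (adjusted p = 0.296) and 0.40 in D1D2MO (adjusted p = 0.0366, a fold under the threshold). For the eta subunit gene cct7 the values were 0.24 in D3MO (adjusted p = 0.411) and 0.21 in D1D2MO (adjusted p = 0.257). Without cct2, all 3 subunits had a log2FC above 0 in D3MO, with a median of 0.24, and 2 of 3 had one above 0 in D1D2MO, with a median of 0.21. The medians of the probes with a symbol were 0.068 in D3MO and 0.079 in D1D2MO.

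**Figure D3:**
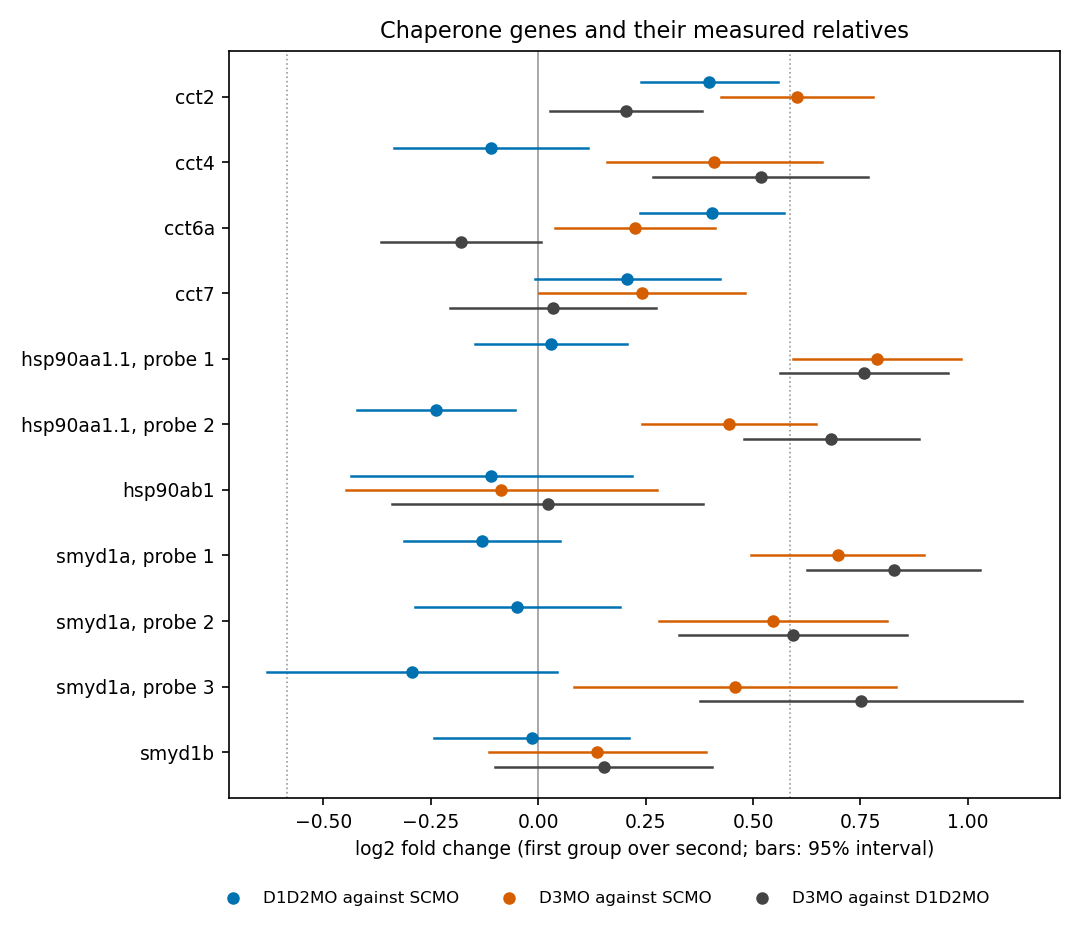
Log2 fold change (horizontal axis) of the CCT subunit genes, the 2 Hsp90 genes and the 2 Smyd1 genes with a named probe, in the 3 contrasts. Points are fitted values, bars are 95% confidence intervals and dotted lines mark a 1.5-fold change. The intervals of hsp90ab1 and smyd1b include 0 in all 3 contrasts. The members were selected on D3MO values, so their place there is no comparison with the relatives.

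Other chaperone classes were read from the same table, where 0.761% of all probes were called higher in D1D2MO and 0.821% in D3MO. Of 24 listed genes of the Hsp70 class, small heat shock proteins and related factors, 5 were measured under a name and none was called, with a median log2FC of -0.063 in D3MO and -0.016 in D1D2MO over 6 probes. An unadjusted p under 0.05 in the limma fit was reached by 2 of these probes in D3MO and by 0 in D1D2MO. The constitutive Hsp70 gene hspa8 had log2FC values of -0.61 (adjusted p = 0.297) and -0.31 (adjusted p = 0.788) in D3MO at its 2 probes. Among folding factors of the endoplasmic reticulum, calls against SCMO were made in D1D2MO and not in D3MO. The prolyl isomerase genes ppib and fkbp7 rose in D1D2MO, by 0.83 (adjusted p = 0.00740) and 0.73 (adjusted p = 0.0467), and were at 0.12 (adjusted p = 0.755) and -0.0098 (adjusted p = 0.997) in D3MO. In the direct contrast both were lower in D3MO, by a log2FC of -0.72 (adjusted p = 0.0112) for ppib and -0.74 (adjusted p = 0.0446) for fkbp7. These were 2 of the 3 measured genes of a list of 12, while fkbp9 was not called. Of the probes with a symbol, 10.8% were called higher in D1D2MO against SCMO. In the direct contrast 17.3% of them were called lower in D3MO, beside 1.27% of all probes.

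The genes of the motor and filament proteins themselves were examined next, beginning with myosin. Of 20 listed heavy and light chain genes, 13 were measured with 20 probes. In D3MO 5 of them rose, the fast heavy chain gene myhz1.1 (log2FC 1.18, adjusted p = 0.0119), the fast light chain gene mylpfa (1.14, adjusted p = 0.0439), the slow heavy chain gene smyhc3 (0.61, adjusted p = 0.0181) and the cardiac light chain genes cmlc1 (0.69, adjusted p = 0.0120) and myl7 (0.63, adjusted p = 0.0304). The smooth muscle heavy chain gene myh11a fell, with -0.71 (adjusted p = 0.0145). In D1D2MO 1 gene was called, the fast heavy chain gene myhz2, which rose by 0.75 (adjusted p = 0.0154) and had a log2FC of -0.14 in D3MO (adjusted p = 0.728). Of the probes with a symbol, 11.4% were called higher and 3.6% lower in D3MO, beside 0.821% and 0.264% of all probes. In D1D2MO 10.8% were called higher, beside 0.761% of all probes, so the 1 call among 20 myosin probes there is no more than that share. The median over the 20 myosin probes was 0.62 in D3MO and 0.0098 in D1D2MO, beside 0.60 and -0.13 for the members. Some probes of myhz1.1, myhz1.2 and mylpfb were named only through accession numbers of probes that had passed a filter on some contrast. That filter was an unadjusted p under 0.05 in the limma fit and a change over 1.5-fold. The myosin medians thus follow in part from the naming, as do those of the members.

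Set directly against each other, D3MO exceeded D1D2MO at 15 of the 20 myosin probes, with a median log2FC of 0.59. Of these probes 8 belong to myhz1.1 and myhz1.2, and with 1 probe per gene, that of the smallest p in the contrast, the median was 0.36 in the direct contrast, 0.61 in D3MO and 0.13 in D1D2MO. The count of 15 and the medians follow in part from how the probes were named. Called higher in D3MO were myhz1.1 (0.62, adjusted p = 0.0449), myhz1.2 (0.92, adjusted p = 0.0375) and mylpfa (1.12, adjusted p = 0.0273). Called lower was myhz2, with -0.89 (adjusted p = 0.00860). Of the probes with a symbol, 10.4% were called higher and 17.3% lower in this contrast, beside 0.889% and 1.27% of all probes. Probes of one gene did not always give 1 answer: of 6 probes for myhz1.1, 1 was called in D3MO, and their log2FC lay between 0.38 and 1.18. Fast heavy chain genes are close copies of one another, and whether these probes read one copy or several was not tested.

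TRiC/CCT folds actin, and 5 of the 7 actin genes were called higher in both knockdowns and lower in D3MO than in D1D2MO. All 7 listed genes were measured, with 20 probes. In D1D2MO 6 rose, among them the skeletal actin genes acta1a and acta1b, the cardiac actin genes actc1a and actc1b and the cytoplasmic beta-actin genes actb1 and actb2. The largest log2FC values there were 2.40 for actc1a and 2.19 for actb2, each with an adjusted p of 0.000309. Other probes of these genes were lower in D1D2MO, with 0.98 and 0.98 for actc1a and 0.63 and 0.76 for actb2. For actb1 the values were 1.72 and 0.76. The second probe of actc1b, at 0.91, was not called in D1D2MO (adjusted p = 0.0514 in the limma fit). In D3MO 5 rose (acta1a, acta1b, actb1, actb2 and actc1a), with 1.26 for actc1a (adjusted p = 0.0108) and 1.03 for actb2 (adjusted p = 0.00856), and actc1b was not called. At 4 of these 5 genes only 1 probe was called in D3MO, and the others were lower, with 0.23 and 0.24 beside 1.01 for acta1a, 0.55 beside 0.82 for actb1, 0.44 and 0.17 beside 1.03 for actb2, and 0.49 and 0.56 beside 1.26 for actc1a. Smooth muscle actin acta2 fell in both, with -1.21 in D3MO (adjusted p = 0.00225) and -0.85 in D1D2MO (adjusted p = 0.00390).

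Over the 20 actin probes the median log2FC was 0.62 in D3MO and 1.39 in D1D2MO. The direct contrast was below 0 at 19 of 20 actin probes, with a median of -0.72, and 5 genes (acta1a, acta1b, actb1, actb2 and actc1a) were called lower in D3MO than in D1D2MO. Many of the actin probes were named only through accession numbers of probes filtered in the same way as for myosin. The actin counts and medians thus follow in part from the naming. For cct2 the direct contrast was above 0, at 0.20, with an adjusted p over 0.05 in the limma fit. Actin sequences are alike, and probes of one actin gene may read others. Over all probes, 0.761% were called higher in D1D2MO and 0.821% in D3MO, each against SCMO. For probes with a symbol these shares were 10.8% and 11.4%. In the direct contrast, 1.27% of all probes and 17.3% of those with a symbol were called lower in D3MO. None of the 3 measured tubulin genes of 17 listed was called, with a median log2FC of 0.15 in D3MO and -0.016 in D1D2MO. One of them, tuba1l2, had 0.45 in D1D2MO with an adjusted p of 0.0293 and a fold under the threshold. An unadjusted p under 0.05 in the limma fit was found for 1 tubulin probe in D3MO and for 2 in D1D2MO.

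**Figure D4:**
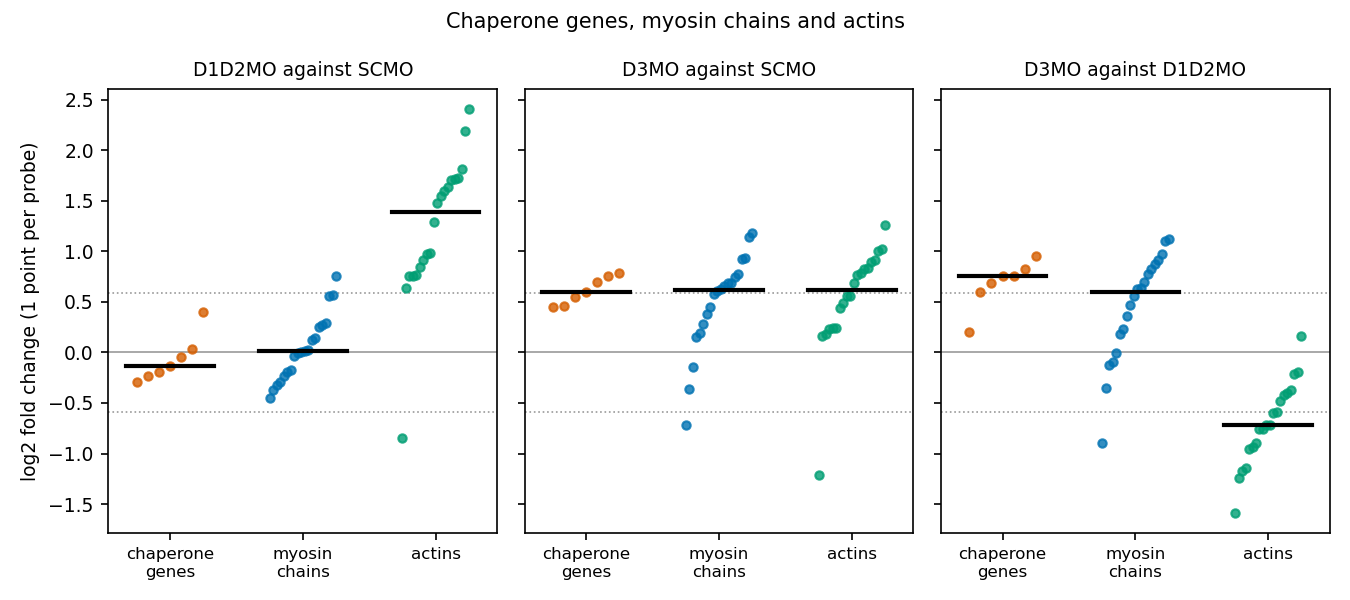
Log2 fold change (vertical axis) of each probe of the 4 members (7 probes, labelled chaperone genes), the myosin chain genes (20 probes) and the actin genes (20 probes), with 1 panel per contrast. Points are single probes in order of size, black bars are medians and dotted lines mark a 1.5-fold change. In D3MO against SCMO the 3 medians are 0.60, 0.62 and 0.62, while in D1D2MO against SCMO they are -0.13, 0.0098 and 1.39. The members were selected on D3MO values, and some probes of all 3 sets were named only because they passed filters on these contrasts. The medians are a description.

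Markers of the cells that an abdomen can hold moved as well, and their part in the members' values was not tested. Levels per group were not analysed here, so that only fold changes of the markers can be given, and no marker can be said to be at 0. Of 16 fast skeletal muscle genes, all of them measured, 6 rose in D3MO (acta1b, atp2a1, mylpfa, ryr1b, tnnt3a and tpma) and 9 rose in D1D2MO (acta1b, casq1a, ckma, myhz2, pvalb2, tnnc2, tnnt3a, tnnt3b and tpma). None of the 16 was called lower in either. A gene counted as risen where any of its probes was called, and probes of one gene could differ in direction. In D1D2MO the log2FC of tnnt3b was 0.70, 0.22 and -0.24 at its probes. That of tpma lay between -0.32 and 0.94 in D1D2MO and between -0.31 and 1.17 in D3MO. The median log2FC over their 31 probes was 0.65 in D3MO and 0.55 in D1D2MO, whereas that of the members was 0.60 in D3MO and -0.13 in D1D2MO. Some of the 31 probes, too, were named only because they passed filters on these contrasts. Most symbols came from probes called in some body part, so the counts of risen genes follow in part from the naming. Of all probes 0.821% were called higher in D3MO and 0.761% in D1D2MO, each against SCMO. Of the probes with a symbol these shares were 11.4% and 10.8%. In the direct contrast, D3MO was higher at ckmb, mylpfa and ryr1b and lower at acta1b, casq1a, ckma, myhz2 and tnnc2. There 0.889% of all probes were called higher and 1.27% lower, beside 10.4% and 17.3% of those with a symbol.

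At the 3 probes of ryr1b, the calcium release channel gene, the log2FC was between 0.48 and 0.96 in D3MO and between -0.31 and 0.0040 in D1D2MO. Other fast muscle genes were lower in D3MO than in D1D2MO. Their log2FC values were 0.22 in D3MO and 0.81 in D1D2MO for casq1a, 0.16 in D3MO and 0.85 in D1D2MO for the creatine kinase gene ckma, and 0.45 in D3MO and 1.07 in D1D2MO for the troponin C gene tnnc2. The calcium pump gene atp2a1 rose in D3MO, by 1.02 (adjusted p = 0.0145), and had 0.50 in D1D2MO (adjusted p = 0.0664). Troponin T tnnt3a rose in both, by 0.69 in D3MO (adjusted p = 0.0135) and by 1.05 in D1D2MO (adjusted p = 0.00198).

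Among other markers, the 2 measured of 7 heart genes (cmlc1 and myl7) rose in D3MO, and 0 were called in D1D2MO, although the limma fit gave 1 of them an unadjusted p under 0.05 there. Of slow muscle genes 2 of 5 were measured and smyhc3 rose in D3MO. Both measured genes of 5 for smooth muscle fell in D3MO and acta2 fell in D1D2MO. The liver genes fabp10a and tfa, measured of 6 listed, both fell in D1D2MO and fabp10a fell in D3MO. In D3MO tfa was not called, with -0.56, -0.53 and -0.38 at its probes (adjusted p = 0.0400, 0.0556 and 0.473 in the limma fit). The 1 gut gene measured of 4, vil1l, fell in D3MO, with a log2FC of -0.95 (adjusted p = 0.00440), and had -0.51 in D1D2MO (adjusted p = 0.0185), under the fold threshold. Red cell genes rose, 3 of 3 measured of 7 in D3MO and hbbe3 in D1D2MO. The others were above SCMO in D1D2MO without a call. There hbae1 had 0.57, 0.64 and 0.40 at its probes (adjusted p = 0.0231, 0.0729 and 0.0423 in the limma fit), and hbae3 had 0.35 (adjusted p = 0.0423). Skin genes krt4 and krt8, of 4 measured among 5, rose in D1D2MO, as did 5 of 6 measured fin fold and bone genes of 7, and no gene of these 2 lists was called in D3MO. None of 5 exocrine pancreas genes carried a named probe. A gene counted as measured only where it carried a named probe, and most symbols came from probes called in some body part. The shares of measured genes that were called thus follow in part from the naming. In D3MO 0.821% of all probes were called higher and 0.264% lower, beside 11.4% and 3.6% of those with a symbol. In D1D2MO the shares were 0.761% and 0.098% of all probes, beside 10.8% and 1.46%.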

How the data were processed

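RNA of abdomens from 72 hpf larvae was measured on 14 two-colour arrays. Spots were read by the authors with GenePix Pro, and those that nowhere exceeded background by 2 SD were dropped. Background was removed by a normal-exponential fit, dyes were balanced by loess on each array, and limma (version not given in the sources) fitted the linear models. The authors deposited, for each probe and contrast, a log2 fold change and an unadjusted p-value, and shorter tables of 149, 185 and 346 probes with an adjusted p-value, the mean log2 intensity over arrays and 2 scores (moderated t and log odds). All values are thus comparisons of groups by the authors. Those of all probes were used because the members are defined in that table, whereas single-array values were not analysed here.

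From the 13271 lines of the table, 1 control spot was removed. Each p was turned back into a moderated t at 6.93 total degrees of freedom, and the SE as log2 fold change over t. Benjamini-Hochberg adjustment within each contrast over 13270 probes lay within 2.83e-05 of the deposited adjusted p. Whether SE and p cover the spread between biological replicates cannot be told, as the model is not given in full. The number of arrays limits the precision of every value.

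Symbols came from a supplementary gene list of the study (671 probes by probe, 113 by accession) and from RefSeq accessions (104). The members, lists and tests were chosen with earlier results of these data known. Named were all members, called genes of the lists, paralogs and CCT subunits, the 3 genes nearest each member by Euclidean distance over 2 log2 fold changes (1 probe per gene, that of the smallest p in D3MO against SCMO), and markers. In all, 8 lists of related genes and 10 of markers were used. Values of ryr1b, atp2a1, tnnt3a, casq1a, ckma and tnnc2 were singled out after they had been seen.

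Alternatives were other FDR and fold thresholds, 1 adjustment over the 3 contrasts, Benjamini-Yekutieli adjustment, centring on the median, 1 value per gene, and contrasts computed from the other 2. The steps were tested on simulated data. Calculations ran in Python 3.11.15, with pandas 2.3.3 for tables, scipy 1.17.1 and numpy 2.4.6 for statistics and matplotlib 3.10.9 for plots.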

Additional observations from a re-analysis of the deposited data

Results flagged for a closer look

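The difference between the knockdowns, D3MO against D1D2MO, had an adjusted p under 0.05 in the limma fit for 21 probes of the members and the related lists. Genes that are no members entered with 1 probe each, that of the smallest p in this contrast. Of all 13270 probes 739 had such an adjusted p, and of the 888 with a symbol 326. The count of 21 thus follows in part from the naming and from the choice of probes. For the members the difference is a description, since they were selected on the D3MO values. It was 0.95 for unc45b, 0.76 and 0.68 for the 2 probes of hsp90aa1.1, and 0.83, 0.59 and 0.75 for the 3 probes of smyd1a, on the log2 scale.

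Of the other chaperone genes, cct4 was higher in D3MO than in D1D2MO by 0.52, and ppib and fkbp7 were lower, at -0.72 and -0.74. Among myosin genes, D3MO was higher by 0.62 at myhz1.1, 0.92 at myhz1.2, 1.12 at mylpfa, 0.56 at cmlc1 and 0.47 at smyhc3, and lower at myhz2, with -0.89. Actin genes were lower in D3MO than in D1D2MO, with -1.58 for acta1a (-0.72 and -1.24 at its other 2 probes), -0.93 for acta1b, -0.90 for actb1, -1.17 for actb2, -1.14 for actc1a and -0.37 for acta2. Other probes gave -0.21 for actb1, -0.19 and -0.59 for actb2, and -0.48 and -0.42 for actc1a. For acta1b the other probes lay between -0.95 and 0.16. Of the flagged values, those of cct4, cmlc1, smyhc3 and acta2 were under the fold threshold of 1.5.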

How the results depend on the processing

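In D3MO against SCMO, the 4 called genes became 0 at an FDR of 0.01, 0 with an absolute log2 fold change over 1, 0 with Benjamini-Yekutieli adjustment and 2 with the mean log2 fold change and largest p per gene. The last setting kept unc45b and cct2, while hsp90aa1.1 had an adjusted p of 0.0836 and smyd1a one of 0.317. As unc45b and cct2 had 1 named probe each, this setting left their log2 fold change and unadjusted p as they were. It thus does not show them to be more stable than the other members. The adjusted p of the called probes lay between 0.0108 and 0.0153. In D3MO against D1D2MO, the 3 called genes became 0 with an absolute log2 fold change over 1 and 1, unc45b, with Benjamini-Yekutieli adjustment. With the mean and largest p per gene this count became 2, as smyd1a had an adjusted p of 0.0517. In D1D2MO against SCMO, the count of 0 became 1, cct2, with no fold threshold. The other counts of called genes did not move. For single probes, the contrast computed from the other 2 is the same by construction of 1 linear fit, and centring takes 1 small constant from every probe, so these alternatives say nothing of stability.

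Leaving out replicates was not run, since single-array values were not analysed here. No paired analysis was possible because the arrays carry no replicate numbers and the values come from 1 fit over all arrays. Signal over background per array was not analysed here, and whether dim probes limit the members' values was not tested.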
